A study of Mus musculus with 2 samples.

Results

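Collagen chains were followed in RNA of dissected ureters of NMRI mouse embryos at stage E18.5. The members were the 41 genes whose name in the array annotation is that of a collagen alpha chain, out of 31791 gene names on the array, measured by 61 of the 39429 gene probes. Each member was represented by its brightest probe. Of these, 38 were well above background in the RNA labelled Tbx2/Tbx3cDKO or in control RNA on both arrays and were tested among 23409 genes. Per the labels, Tbx2/Tbx3cDKO embryos (cDKO) had one Tbx18 allele with Cre (cre/+), so that Cre follows Tbx18, a gene of the ureteric mesenchyme, and both alleles floxed (fl/fl) at Tbx2 and also at Tbx3, which encode T-box transcription factors. Controls were wild type for Tbx18 (+/+), carried 1 floxed allele of Tbx2 and of Tbx3, and had a second allele of each that the labels leave as unknown (fl/?). The Cre allele is thus present only in the cDKO group. The question of the study was which transcripts are deregulated when these alleles are combined.

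There were 2 arrays, each with 1 cDKO and 1 control RNA. The male array is replicate 1, with cDKO RNA in red, and the female array is replicate 2, with the dyes exchanged, so sex, dye orientation and replicate run together and cannot be told apart. The number of embryos behind each RNA is not in the labels. P-values rest on the spread between these arrays, mostly as pooled over probes, and not on a spread between embryos. Every ratio below is a log2 ratio of cDKO over control after loess normalization, given as the mean ± SD of n = 2 ratios, and "called" means an adjusted p under 0.05 (limma, Benjamini-Hochberg over 29274 probes). Per channel 72.1% to 81.6% of gene spots were well above background, and with 2 arrays the precision is limited. Probes of the targeted genes read higher, not lower, with cDKO RNA: the log2 ratio was 0.74 for Tbx2, 0.66 for Tbx3 and 0.81 for Tbx18, all called (limma). Which exons are floxed is not given in the sources used here, so these probes do not check the labels.

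A collagen is built of 3 alpha chains that wind into a triple helix, in which glycine recurs at a fixed spacing. Chains are hydroxylated and folded in the endoplasmic reticulum, secreted as procollagen, trimmed by proteases and crosslinked by lysyl oxidases. Fibrillar collagens give connective tissue its tensile strength, network-forming type IV collagen builds basement membranes, and FACITs (fibril-associated collagens with interrupted triple helices) sit on the surface of fibrils. In the ureter, collagens surround the epithelium, the connective tissue layers and the smooth muscle coat.

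Collagen transcripts were mostly above control in the RNA labelled cDKO, with the highest mean log2 ratios for Col2a1 (1.29), Col1a1 (1.27), Col8a1 (1.26) and Col1a2 (1.22). Of the 38 chains tested, 14 were called higher, against 2.19% of all genes tested, and 1 was called lower, against 2.26% of all genes. The ratio was above 0 on both arrays for 31 chains, below 0 on both for 4 and of opposite sign for 3; among the 36 chains well above background in all 4 RNAs it was above 0 on both for 29. For comparison, 31.7% of all genes were above 0 on both arrays. The median log2 ratio of the chains was 0.43, with 0.52 in males and 0.39 in females, while the median of all genes was 0.0046. An unadjusted p under 0.05 was reached by 26 of the 38 chains and by 3751 of the 23409 genes. Only Col8a1 was at least 2-fold higher on both arrays, a criterion met by 0.41% of all genes, and 0 chains were 2-fold lower on both arrays, against 0.726% of all genes. The ratio was larger on the male array for all 14 higher chains and for 32 of the 38 chains, compared with 53.9% of all genes.

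**Figure D1:**
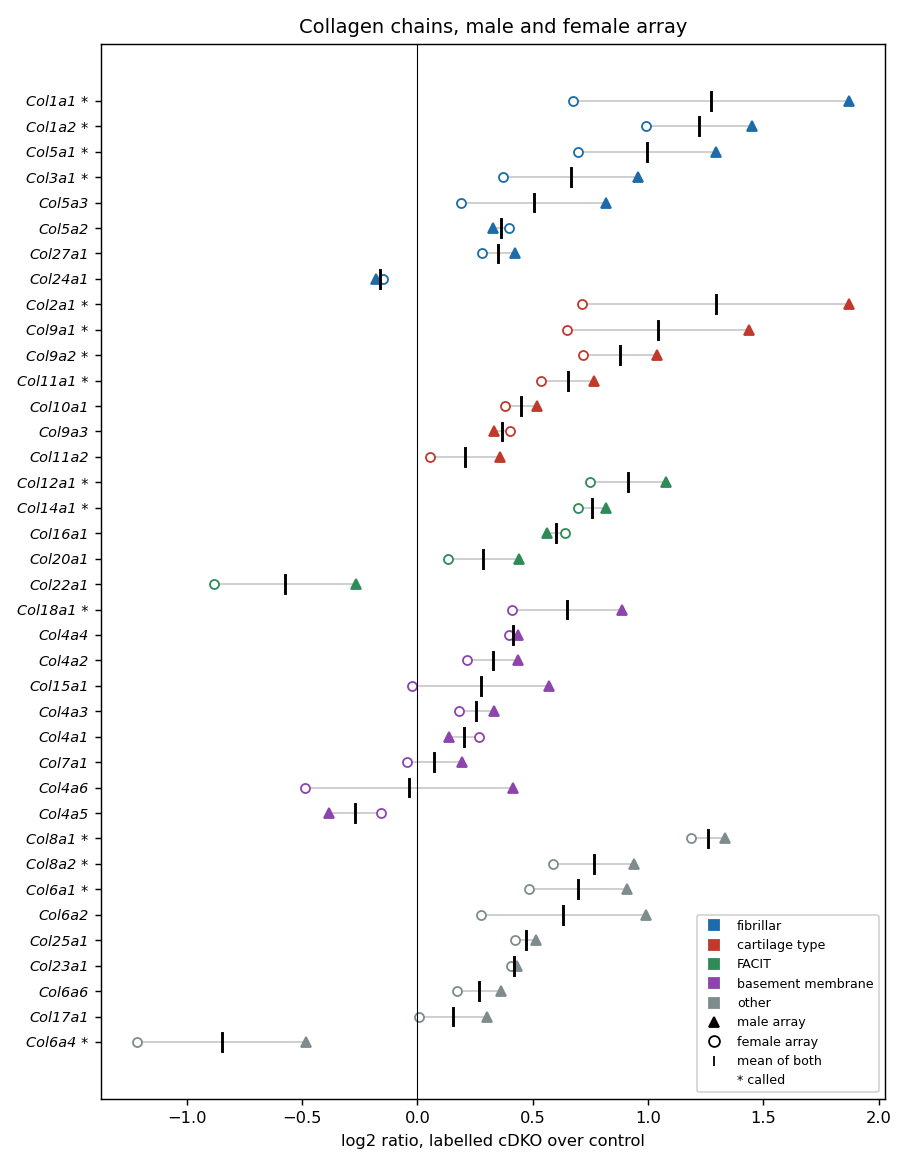
Log2 ratio of cDKO over control (x axis) for the 38 tested collagen chains (y axis), coloured by class; triangles are the male array, open circles the female array, black ticks the mean of both, and asterisks mark the 15 called chains. Most chains lie right of 0 on both arrays, and for all 14 chains called higher the triangle lies right of the circle.

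Type I collagen, the main fibril-forming collagen of connective tissue, is made of Col1a1 and Col1a2 chains. The Col1a1 probe had a processed signal of 70545 in cDKO and 19101 in control RNA of males, and of 47854 in cDKO and 28154 in control RNA of females. Both cDKO values lay above both control values. The log2 ratio was 1.87 in males and 0.67 in females (1.27 ± 0.85, SD, n = 2; limma adjusted p = 0.0029), and this SD is the widest of the 38 chains.

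Col1a2, the partner chain, gave signals of 120390 and 43435 in male and of 104812 and 45591 in female cDKO and control RNA. The groups did not overlap, and the arrays were closer to each other than for Col1a1. Its log2 ratio was 1.45 and 0.99 (1.22 ± 0.33, SD, n = 2; limma adjusted p = 0.000432), a 2.33-fold difference with a 95% interval of 0.85 to 1.59 on the log2 scale.

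Col3a1, the chain of type III collagen, which forms mixed fibrils with type I in distensible organs, was called higher as well. Its signals were 78888 and 43145 in male and 64307 and 44372 in female cDKO and control RNA. All cDKO values were above the control values, with a mean log2 ratio of 0.66 ± 0.41 (SD, n = 2; limma adjusted p = 0.0496), just inside the threshold. Its difference from the type I chains was not tested.

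Type V collagen is built into type I fibrils and limits their diameter. Of its 3 chains 1 was called. Col5a1 rose by 1.00 ± 0.43 (SD, n = 2; limma adjusted p = 0.00346), from signals of 23633 and 23611 in the controls to 55554 and 39494 in cDKO RNA. Col5a2 had a log2 ratio of 0.36 (0.33 and 0.40; limma adjusted p = 0.299) and Col5a3 of 0.50 (0.82 and 0.19; limma adjusted p = 0.167), and neither was called. The difference between these chains was not tested.

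The remaining fibrillar chains, Col24a1 and Col27a1, are minor fibrillar collagens of skeletal tissue. Col27a1 had a log2 ratio of 0.35 (limma adjusted p = 0.319). Col24a1 was at -0.16, with -0.18 and -0.15 on the arrays, and was the one fibrillar chain below 0. In all, 4 of 8 fibrillar chains were called higher and 0 lower, with a median of 0.58.

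**Figure D2:**
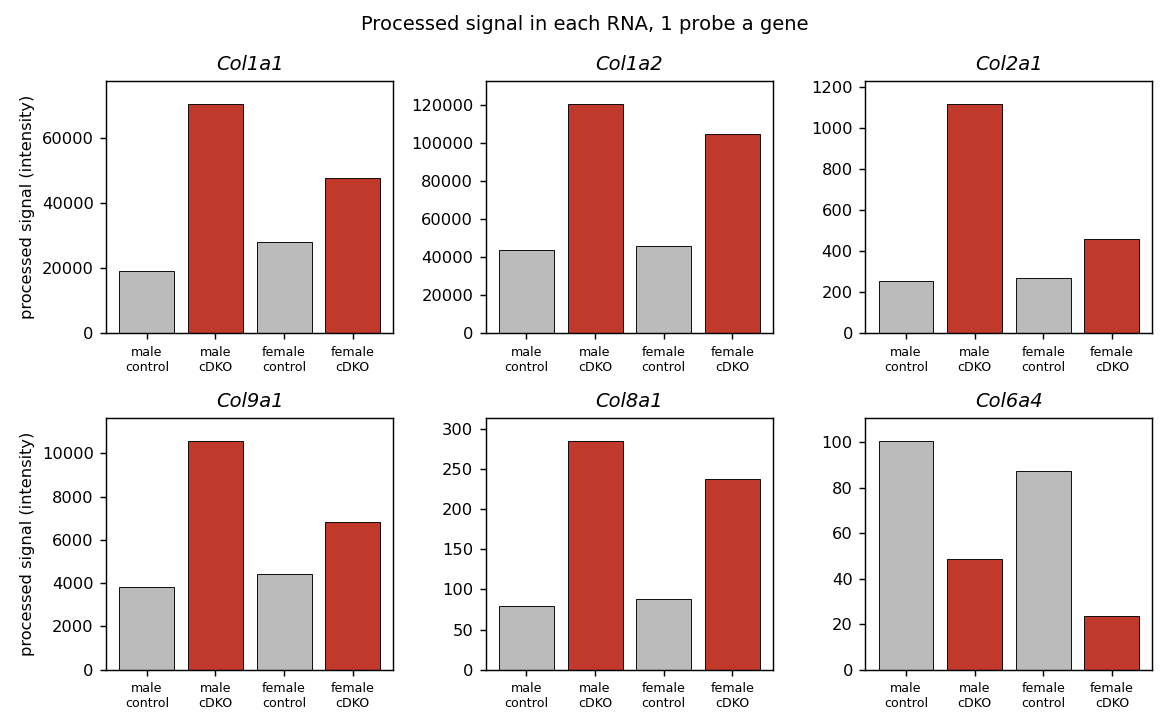
Processed signal (intensity, linear axis from 0, a separate scale for each gene) of 6 chains in the 4 RNAs, 1 probe a gene and 1 measurement a bar; grey bars are control and red bars cDKO. Both cDKO bars exceed both control bars for Col1a1, Col1a2, Col2a1, Col9a1 and Col8a1, and both lie below them for Col6a4.

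Of the 7 collagens typical of cartilage, 4 were called higher. Col9a3 and Col10a1 passed the filter on dim probes through the cDKO RNAs only, which favours a ratio above 0, so counts of signs are given for the other 5, all above 0 on both arrays. Col2a1, the chain of type II collagen and the main collagen of cartilage, had signals of 1119 and 255.7 in male and of 456.9 and 266.6 in female cDKO and control RNA. The control values were close to each other, and the male cDKO value stood above the female one. The log2 ratio was 1.87 and 0.71 (1.29 ± 0.82, SD, n = 2; limma adjusted p = 0.00222), the highest mean of the 38 chains.

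Type IX collagen decorates type II fibrils and is assembled from Col9a1, Col9a2 and Col9a3 chains. Col9a1 gave signals of 10581 and 3842 in males and 6846 and 4430 in females for cDKO and control RNA. Its log2 ratio was 1.44 and 0.65 (1.04 ± 0.56, SD, n = 2; limma adjusted p = 0.00388). Col9a2 had signals of 6398 and 2981 in males and 4358 and 2634 in females, and rose by 0.88 ± 0.23 (SD, n = 2; limma adjusted p = 0.00526). Neither chain's groups overlapped. Col9a3 was dim, at 37.1 and 15.1 in males and 20.2 and 9.14 in females, and its control signal was well above background on the male array only. Its log2 ratio was 0.37 (limma adjusted p = 0.287) with offset 50, 0.42 and 0.64 on the arrays with offset 0, and 1.29 and 1.14 from the processed signals.

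Col10a1, the collagen of hypertrophic chondrocytes, was as dim as Col9a3. Its control signal was likewise well above background on the male array only, and its log2 ratio was 0.45 (limma adjusted p = 0.173), against 1.54 and 1.40 from the processed signals. With normexp and offset 0 it was 0.63 and 0.61. The setting thus sets the size of the ratio at such dim probes. The other Col10a1 probe, which was not kept, did not read higher with male cDKO RNA. Its cDKO and control signals were 16.2 and 31.5 in males and 12.4 and 12.3 in females. Type XI collagen nucleates fibrils together with type II. Col11a1 rose by 0.65 ± 0.16 (SD, n = 2; limma adjusted p = 0.0345), with signals of 349.4 and 175.5 in males and 260.6 and 171.0 in females, whereas Col11a2 was at 0.21 (limma adjusted p = 0.642) and not called.

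Genes that mark cells of the skeleton gave the following values beside these chains. Of 9 tested chondrocyte genes, 0 were called in either direction by limma and 0 had an unadjusted p under 0.05, with a median log2 ratio of -0.11. Comp, Snorc and Ucma, the other genes of that list, were not well above background in any RNA. The summed signal of the list was 19762 in male cDKO and 29689 in male control RNA, and 19378 and 17648 in females. Most of each sum came from Sox5 alone, at 17796 and 26427 in males and 17686 and 16039 in females. Of 8 listed osteoblast genes 6 were tested. Of these, 3 were called higher: Sp7, a transcription factor of osteoblasts, at 0.74, Ibsp, which encodes bone sialoprotein, at 1.00, and Ifitm5 at 0.99. The other 3 tested genes had opposite signs on the arrays, and the list median was 0.48. The osteoblast sum was 6105 and 3689 in males and 4440 and 3922 in females. The part of skeletal cells in the collagen ratios was not tested. In such bulk RNA, a change in the number of cells of a type and a change in RNA per cell cannot be told apart.

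Among the FACITs outside cartilage, 2 of the 5 tested chains were called higher. Col12a1, which binds type I fibrils in dense connective tissue, had signals of 11395 and 5499 in male and 8569 and 5165 in female cDKO and control RNA. It rose by 0.91 ± 0.23 (SD, n = 2; limma adjusted p = 0.00391). Col14a1, a related chain of loose and dense connective tissue, had signals of 41633 and 23421 in males and 33774 and 20292 in females and rose by 0.76 ± 0.09 (SD, n = 2; limma adjusted p = 0.0123). In both genes the cDKO values were above both control values. The male and female arrays gave 1.08 and 0.75 for Col12a1, and lay closer together for Col14a1, at 0.82 and 0.69.

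Col16a1 was just outside the threshold, at 0.60 with 0.56 and 0.64 on the arrays (limma adjusted p = 0.0511). Col20a1 was at 0.29 (limma adjusted p = 0.461). Col22a1, a collagen of tissue junctions such as that of muscle and tendon, was the lowest FACIT, at -0.27 and -0.88 (-0.58 ± 0.44, SD, n = 2; limma adjusted p = 0.103), and was not called. Col19a1 was not well above background in any of the 4 RNAs.

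Basement membrane and related chains had the lowest median of the classes, 0.25, with 1 of 9 called higher and 0 lower. Col18a1, whose C-terminal fragment is endostatin, was that chain: its signals were 19266 and 10222 in males and 12496 and 9671 in females, and it rose by 0.65 ± 0.34 (SD, n = 2; limma adjusted p = 0.0477). The type IV chains assemble into a sheet-like network, with Col4a1 and Col4a2 in nearly all basement membranes. Col4a1 was at 0.20, with a 95% interval of -0.15 to 0.55, and Col4a2 at 0.33, with an interval of -0.02 to 0.68. Neither was called (limma adjusted p = 0.642 and 0.368).

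The chains of more restricted basement membranes, among them those of the kidney glomerulus, were not called either. Col4a3 was at 0.25, Col4a4 at 0.41 and Col4a5 at -0.27, with -0.38 and -0.16 on the arrays for Col4a5. Col4a6 changed sign, with 0.41 in males and -0.49 in females. Its second probe gave 0.43 and -0.34, so both probes moved the same way on each array. Col15a1, a chain of the outer basement membrane zone, and Col7a1, the chain of anchoring fibrils, also had opposite signs, with 0.57 and -0.02 for Col15a1 (1.42 and -0.06 from the processed signals) and 0.19 and -0.05 for Col7a1. The other kept Col15a1 probe was above 0 on both arrays, at 0.28 and 0.07.

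Several of these type IV genes lie next to each other in opposite orientation. In the RefSeq promoter table (GRCm38.p6), the starts of Col4a1 and Col4a2 lie 21 bases apart on chromosome 8 and those of Col4a5 and Col4a6 lie 1343 bases apart on chromosome X. The log2 ratios within the first pair were 0.20 and 0.33, and within the second -0.27 and -0.04. Other neighbouring collagen genes in the RefSeq gene table were Col3a1 and Col5a2 (0.66 and 0.36), Col4a4 and Col4a3 (0.41 and 0.25), and Col6a2 and Col6a1 (0.63 and 0.70). Col9a1 (1.04) also neighboured Col19a1, which was not tested. The Col4a4 probes lie on the minus strand and the Col4a3 probe on the plus strand, so this type IV pair is in opposite orientation too. No promoter window was found for Col4a3, so the distance between their starts is not given.

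The remaining class holds short-chain, beaded-filament and membrane-spanning collagens, of which 3 of 9 tested were called higher and 1 lower, with a median of 0.47. Col8a1 forms the short-chain network collagen VIII with Col8a2 and is known from vessel walls and endothelial basement membranes. Its signals were 285.4 and 79.9 in males and 237.5 and 88.4 in females for cDKO and control RNA. The arrays differed little, with log2 ratios of 1.33 and 1.19 (1.26 ± 0.10, SD, n = 2; limma adjusted p = 0.000177), a 2.40-fold difference. Col8a2 rose as well, by 0.76 ± 0.25 (SD, n = 2; limma adjusted p = 0.0145), with signals of 12374 and 6175 in males and 8971 and 5973 in females. Beside these, 2 of 10 endothelial genes were called higher, Plvap at 0.97 and Cdh5 at 0.68, and the median of that list was 0.27.

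Type VI collagen forms beaded filaments around cells from Col6a1, Col6a2 and a further chain. Col6a1 rose by 0.70 ± 0.30 (SD, n = 2; limma adjusted p = 0.0296), with signals of 73807 and 39778 in males and 58231 and 37260 in females. Col6a2 was at 0.63, with 0.99 and 0.27 on the arrays, and missed the threshold (limma adjusted p = 0.0788). Col6a4 was the only chain called lower. Its signals were 48.8 and 100.6 in males and 23.5 and 87.3 in females, so that both cDKO values lay below both controls at a dim probe, and its log2 ratio was -0.48 and -1.22 (-0.85 ± 0.52, SD, n = 2; limma adjusted p = 0.0151). From the processed signals it was -1.04 and -1.89, with a mean of -1.47, and was not called. The other Col6a4 probe, with signals of 2.14 to 6.27 in the 4 RNAs, was not kept. Col6a6 was at 0.27 (limma adjusted p = 0.486).

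The membrane-spanning collagens were not called. At the brightest probe Col23a1 was at 0.42 and Col25a1 at 0.47, each with less than 0.1 between the arrays (limma adjusted p = 0.206 and 0.146). The other Col23a1 probes gave 0.48 and 0.26, and 0.62 and -0.42, in males and females. Those of Col25a1 gave 0.19 and 0.93, 0.14 and 0.40, and 0.25 and 0.31. Col17a1, the collagen of epithelial hemidesmosomes, was at 0.16 (limma adjusted p = 0.761). Col13a1 and Col28a1 were not well above background in any RNA.

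**Figure D3:**
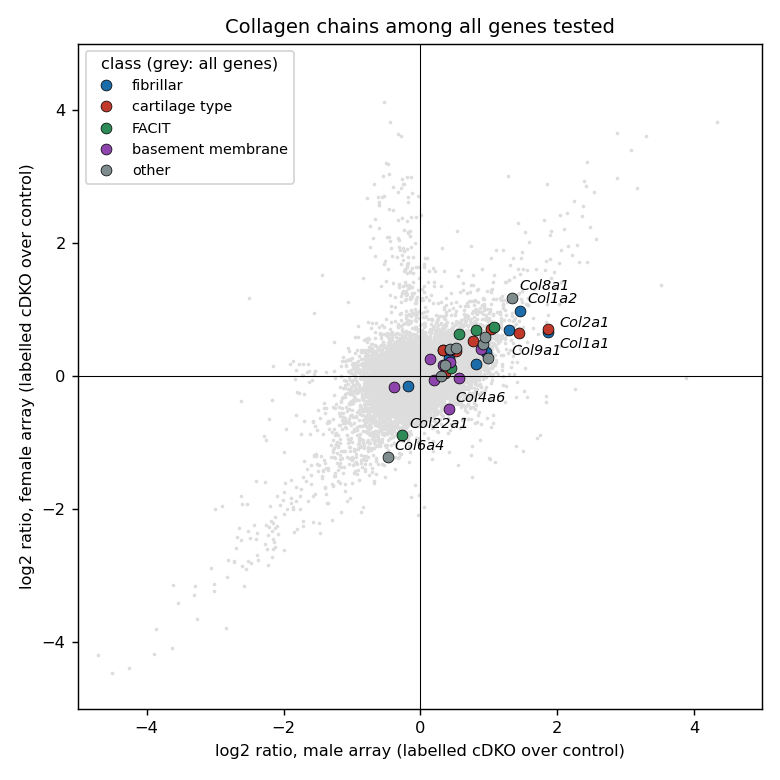
Log2 ratio of cDKO over control on the male array (x axis) against the female array (y axis); grey points are all 23409 genes tested and coloured points the 38 collagen chains by class. Across the chains the arrays had a Pearson correlation of 0.787 (0.487 over all genes, and 0.370 over the chains with median centring), described only, since both share the comparison and the chains are not replicates; Col1a1 and Col2a1 lie furthest to the right, and Col6a4 lies lowest.

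Probes of 1 gene can read different transcript ends. Of the 14 members with several probes, 12 had more than 1 kept probe, and in 1 of them, Col4a6, the mean ratios had opposite signs, both near 0. Among the 4 called chains with several kept probes, 2 were called by every probe, Col14a1 (0.76 and 0.73) and Col18a1 (0.65 and 0.77). The second Col8a2 probe was at 0.39 and was not called. Col9a1 differed most: the bright probe at chr1:24259125-24259184 (mm9) was at 1.04, and a dim one at chr1:24201545-24201604 (mm9), with signals of 26.8 to 32.0 in all RNAs, was at 0.05. The RefSeq promoter table lists 2 start windows for Col9a1. No gene annotation on mm9 was used here, so exon and untranslated positions of the probes are not given.

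4 of the 61 probes carry the collagen repeat itself: at least 4 glycine codons (ggn) in a row, each 9 bases after the last. They are shown because they read the part of the transcript that encodes the triple helix, as letters of the deposited probe annotation, 5′ to 3′, with the glycine codons of the run in capitals. On mm9 they lie at chr15:55347733-55347792 for Col14a1, chr4:129756457-129756516 for Col16a1, chr4:47283786-47283845 for Col15a1 and chr3:130270497-130270556 for Col25a1, all on the plus strand.
Col14a1 repeat probe: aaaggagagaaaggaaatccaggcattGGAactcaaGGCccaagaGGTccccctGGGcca
Col16a1 repeat probe: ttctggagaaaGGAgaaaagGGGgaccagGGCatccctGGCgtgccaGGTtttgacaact
Col15a1 repeat probe: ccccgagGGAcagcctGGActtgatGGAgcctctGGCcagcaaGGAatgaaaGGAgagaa
Col25a1 repeat probe: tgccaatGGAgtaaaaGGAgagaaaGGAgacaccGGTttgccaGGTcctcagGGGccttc

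None of these is the brightest probe of its gene. The Col14a1 repeat probe was called higher, at 0.73 with 0.72 and 0.73 on the arrays (limma adjusted p = 0.016), close to the 0.76 of the brightest probe. The Col16a1 repeat probe was at 0.34 (limma adjusted p = 0.348), below the 0.60 of the brightest and the 0.64 of another probe of that gene, which was called (limma adjusted p = 0.0411). The Col25a1 repeat probe was at 0.28 (limma adjusted p = 0.454), and that of Col15a1 was not kept.

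Promoter windows of RefSeq (GRCm38.p6) were found for 33 of the 41 members, 11 of them called. In the 250 bases upstream of the start, the T-box half-site letters AGGTGTGA were in 0 of the 33 members on either strand, against 1.30% of 27025 genes in the table. The CCAAT box was in 13 of 33 members on either strand, against 37.5% of all genes, and TATAAA on the sense strand was in 5 of 33, against 8.94%. The last 150 bases before the start are printed for Col1a2 and Col8a1, the chains whose calls held under the most settings, and for Col3a1, the one called chain with TATAAA. Capitals mark matches to either box. The stretches are chr6:4505468-4505617 (plus strand) for Col1a2, chr16:57754738-57754887 (minus strand) for Col8a1 and chr1:45311388-45311537 (plus strand) for Col3a1.
Col1a2 upstream: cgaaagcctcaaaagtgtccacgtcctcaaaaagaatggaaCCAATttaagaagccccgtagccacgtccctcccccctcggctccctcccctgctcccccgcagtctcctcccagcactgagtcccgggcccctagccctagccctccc
Col8a1 upstream: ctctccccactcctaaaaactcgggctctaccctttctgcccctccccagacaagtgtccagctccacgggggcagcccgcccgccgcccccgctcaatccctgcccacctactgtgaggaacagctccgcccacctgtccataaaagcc
Col3a1 upstream: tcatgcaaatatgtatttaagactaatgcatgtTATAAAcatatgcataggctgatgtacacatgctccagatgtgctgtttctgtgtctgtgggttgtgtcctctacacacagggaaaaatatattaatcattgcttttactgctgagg

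A match is only a match of letters, and these promoters show no common motif among the 3 searched: Col1a2 holds a CCAAT box at -109 from the start, Col3a1 holds a TATAAA at -117, and Col8a1 holds neither.

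Genes that fold, process and crosslink collagen were tested from lists. Of all genes tested, 2.19% were called higher and 2.26% lower. Among 22 genes of folding and hydroxylation, 1 was called higher, Fkbp10, a prolyl isomerase of the endoplasmic reticulum, at 0.69 ± 0.16 (SD, n = 2; limma adjusted p = 0.0253). The median of that list was 0.32, and 17 of the 22 were above 0 on both arrays, against 31.7% of all genes. Among 10 secretion genes, Creb3l1, a transcription factor of collagen-secreting cells, was called higher at 0.89 ± 0.40 (SD, n = 2; limma adjusted p = 0.00759), with a list median of 0.10. Of 8 tested genes of procollagen processing, 2 were called higher: Pcolce, which enhances removal of the C-propeptide, at 0.89, and Adamts2, which removes the N-propeptide, at 0.75. That list had a median of 0.50.

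Crosslinking genes were above 0 on both arrays for 7 of 7, against 31.7% of all genes, with a median of 0.39, and Lox was called. Lox, the lysyl oxidase that starts covalent crosslinks between chains, had signals of 12269 and 5389 in males and 10975 and 4219 in females. Both cDKO values were above both controls, at 1.32 ± 0.13 (SD, n = 2; limma adjusted p = 0.000112). Its ratio was 1.23 in males and 1.41 in females, whereas the 14 chains called higher had the larger ratio in males.

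Of 18 tested genes whose proteins bind collagen fibrils, 5 were called higher and 0 lower. Of the 18, 7 were below 0 on both arrays, against 28.0% of all genes, and the median was 0.15. The called genes were Fbln1 (1.13), Fn1, which encodes fibronectin (1.11), and the small leucine-rich proteoglycan genes Lum (0.99), Dcn (0.84) and Fmod (0.78). Among 13 basement membrane partners of type IV collagen, 2 were called higher: Lama1, a laminin chain, at 1.76 ± 0.27 (SD, n = 2; limma adjusted p = 7.34e-06), and Nid2, a nidogen, at 0.76. Of 11 tested collagen receptors 1 was called lower, the integrin chain gene Itga10, at -0.72, and of 10 tested collagen-degrading proteases 1 was called lower, Mmp9, at -1.12. The medians of these lists were -0.09 and 0.13.

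**Figure D4:**
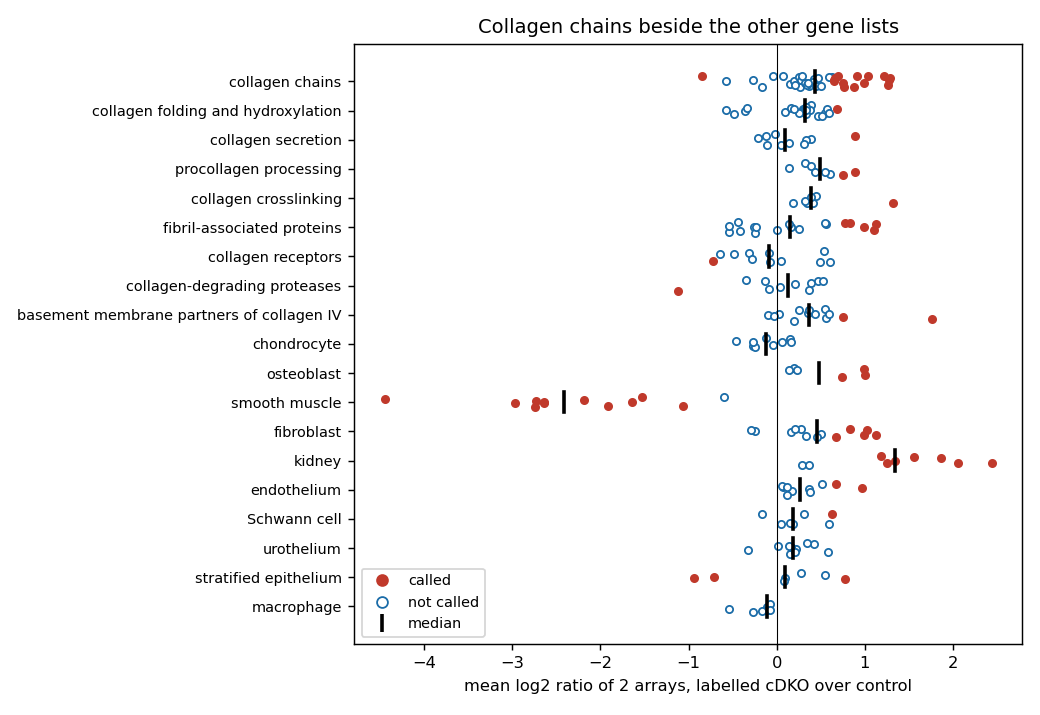
Mean log2 ratio of cDKO over control on 2 arrays (x axis) for the tested genes of each list (y axis), with collagen chains on top; each point is a gene, red points were called, open points were not, the black tick is the median, and vertical scatter within a row is only for legibility. The collagen median lies at 0.43, and the smooth muscle median, at -2.41, lies furthest from 0.

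Markers of cell types that a dissected ureter can hold were measured beside the collagens. Of 12 smooth muscle genes 11 were called lower, with a median of -2.41 and a summed signal of 117706 and 616086 in male and 72717 and 375724 in female cDKO and control RNA. Fibroblast genes had 5 of 13 called higher and a median of 0.46, and their sum was 457461 and 290681 in males and 389332 and 226862 in females; Dcn, Lum and Fbln1 stand in this list and among the fibril-associated genes. Kidney genes had 7 of 9 tested called higher, with a sum of 11266 and 3559 in males and 5976 and 4194 in females. Of the 7 kidney genes well above background in all 4 RNAs, 5 were called. Of 10 urothelial genes 0 were called by limma, with 2 at an unadjusted p under 0.05, and the median was 0.18. Of 7 macrophage genes 0 were called by limma, with 1 at an unadjusted p under 0.05 and a median of -0.11. The Schwann cell list had 1 of 7 called higher, Fabp7 at 0.63, and the stratified epithelium list had 1 of 7 higher, Krt1 at 0.78, and 2 lower, Krt14 at -0.71 and Krt17 at -0.93. The part of these shifts in the collagen ratios was not tested.

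Normalization moved the arrays apart for bright chains. With median centring in place of loess, Col1a1 was at 2.58 in males and -0.04 in females, Col1a2 at 2.23 and 0.12, Col3a1 at 1.74 and -0.48, and Col6a1 at 1.67 and -0.30. The mean ratios, in which opposite dye orientations are averaged, stayed near those with loess, at 1.27, 1.17, 0.63 and 0.68. Under median centring 3 of the 15 called chains had opposite signs on the arrays. Col8a1, at 1.37 and 1.21, did not. When genes were sorted by brightness into 4 equal groups, 16 chains fell in the brightest group, and 10 of them were called higher, against 1.95% of the genes in that group.

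**Figure D5:**
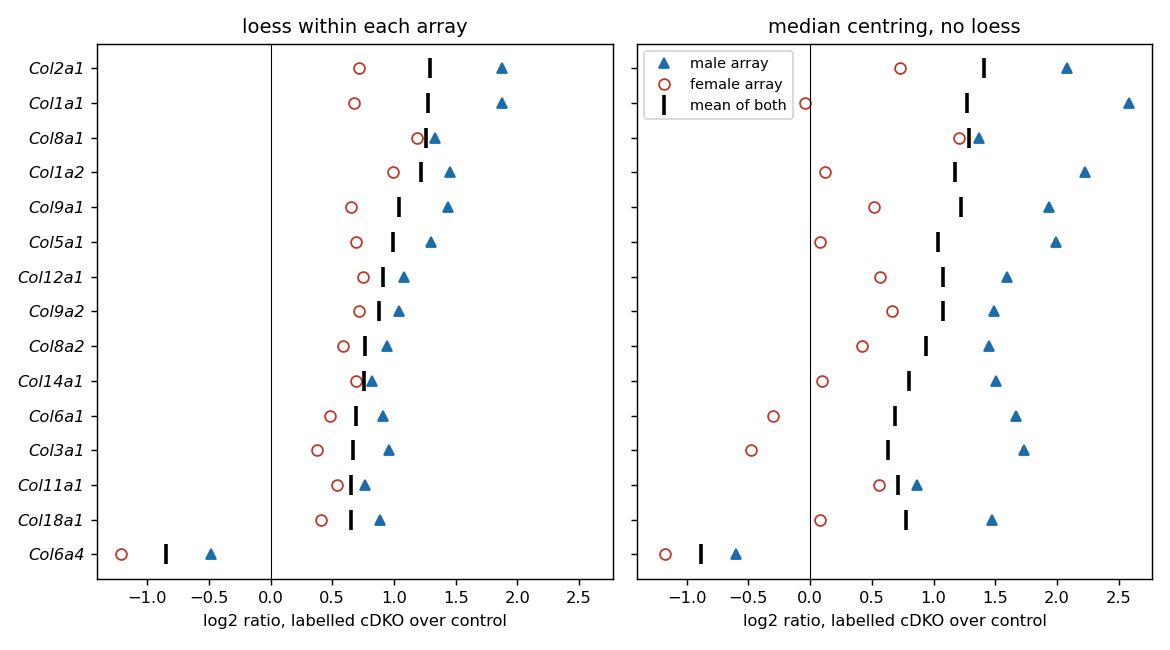
Log2 ratio of cDKO over control (x axis) of the 15 called chains (y axis) with loess within each array (left) and with median centring and no loess (right); triangles are the male array, open circles the female array and black ticks the mean of both. The means lie at similar places in both panels, while the arrays of bright chains such as Col1a1 and Col3a1 lie further apart without loess.

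Counts of calls changed with the processing. All 15 called chains kept their direction in each of the 10 other settings that gave a test, but from the processed signals 4 chains were called higher, Col1a2, Col8a1 and the dim Col9a3 and Col10a1, which were kept through the cDKO RNAs only, and with median centring 5 were, Col1a1, Col1a2, Col2a1, Col8a1 and Col9a1. Col3a1, Col6a1 and Col18a1 also lost their call with offset 0 and with no filter on dim probes, Col11a1 and Col6a4 with no filter, Col11a1 with an intensity trend, Col1a1 and Col2a1 with robust eBayes, and Col8a2 and Col9a1 when a gene's probes were averaged. Among listed genes, Fkbp10, Creb3l1, Adamts2, Pcolce, Dcn, Lum, Fmod, Fn1 and Nid2 lost their call both from the processed signals and with median centring. So did Itga10, Sp7, Ibsp, Ifitm5, Cdh5, Fabp7, Krt1, Krt14 and Krt17. Of these 2 settings, Fbln1 and Plvap lost it from the processed signals, Mmp9 with median centring, and Lox and Lama1 under neither. Averaging a gene's probes also ended the calls of Plvap, at 0.52, and Adamts2, at 0.48. Offset 0 ended those of Fkbp10, Cdh5 and Fabp7, and no filter on dim probes those of Cdh5 and Fabp7. Of the kidney genes 3 were called higher from the processed signals, against 7.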

How the data were processed

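Agilent Feature Extraction 10.7.3.1 quantified the scans, per the submitters' processing notes and the file headers. The deposited spot intensity (mean and local background of each channel), the processed signal intensity and the log10 ratio of red over green come from that program. The value table the authors deposited holds a score of unstated scale; it equalled the signed fold of processed signals, cDKO over control, within 0.001 log2 for 100% of values with both signals above 60. Its column medians were 1, so no further centring was seen.

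Mean intensities were corrected by normexp (offset 50) and loess within arrays (limma 3.58.1, R 4.3.3), with control and outlier spots at weight 0. A probe entered the test (29274 did) when 1 of the groups read well above background on both arrays. The mean ratio was tested against 0 with lmFit and eBayes (two-sided, 1 residual and 13.9 prior degrees of freedom), so p-values rest mostly on variance pooled over probes. The fit was tested on simulated data. RefSeq names (GRCm38.p6) were matched by accession for 26412 probes.

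Members and lists were chosen with earlier results of these data known. Every member could be named, and from other lists the called genes, at most 6 by size, with Tbx2, Tbx3 and Tbx18. Sox5, Comp, Snorc and Ucma are named only to state limits of the chondrocyte list, and Runx2 and Dmp1 those of the osteoblast list. Both arrays shared 1 slide and 1 scan. Alternatives were the processed signals, offset 0, median centring, Aquantile, other filters, the value table, probe means, intensity trend, robust eBayes, 1.5-fold and each array alone.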

Additional observations from a re-analysis of the deposited data

Results flagged for a closer look

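Collagen chains with opposite signs on the male and the female array were looked at again. Col4a6 had log2 ratios of 0.41 in males and -0.49 in females, a difference of 0.90. Col15a1 had 0.57 and -0.02, a difference of 0.59 (1.42 and -0.06, a difference of 1.47, from the processed signals), and Col7a1 had 0.19 and -0.05, a difference of 0.24. The difference was not tested, since each sex has 1 array, and sex cannot be told apart from dye orientation and replicate. For Col4a6 the second probe gave 0.43 and -0.34. The other kept Col15a1 probe gave 0.28 and 0.07, so the opposite signs of Col15a1 were seen at its brightest probe only.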

How the results depend on the processing

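From the processed signals 4 chains were called higher and 0 lower; with median centring 5 and 0; with no filter on dim probes 10 and 0. The shares of all genes called higher in these settings were 0.577%, 0.696% and 1.25%, against 2.19%, so fewer genes were called in all. The median log2 ratio of the chains was 0.57 both from the processed signals and with median centring, against 0.43. From the values the authors deposited, 0 chains were called higher and 0 lower (limma), as were 0 of all 23409 genes. With those values 19 chains had an unadjusted p under 0.05 (limma), and on the loess ratios 26 had. For the 19 no share of all genes is given, so that count is not read as a result about the chains. The count of chains at least 2-fold higher on both arrays was 1, against 0.41% of all genes. It was 10 at 1.5-fold. From the processed signals 4 chains were 2-fold higher and 1 was 2-fold lower. Those 4 include Col9a3 and Col10a1, which were kept through the cDKO RNAs only. The other Col10a1 probe, not kept, read lower with male cDKO RNA than with male control RNA. For the counts at 1.5-fold and from the processed signals no share of all genes is given, so they are not read as a result about the chains. Other settings, each with 1 chain lower, gave 11 (offset 0), 16 (filter on both channels) and 17 (intensity trend) chains higher. Robust eBayes gave 13 and the mean of a gene's probes 12. With offset 0, 1.87% of all genes were called higher, and for the rest no share of all genes is given. Aquantile leaves ratios within an array as they are, so its 14 and 1 add nothing. Each array alone gave medians of 0.39 to 0.52, with no test. All 15 called chains kept their direction in these settings, and 2, Col1a2 and Col8a1, kept their call in all but the deposited value table. All-gene medians with median centring were 0.22 in males and -0.02 in females. The cause of the changed counts was not tested. Dim probes (Col9a3, Col10a1, Col6a4) are limited by signal over background, and 2 arrays limit every value. The test of the ratios within arrays is itself the paired analysis, since each array holds 1 RNA of each group.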

Other observations

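A pair of further collagen genes were on the arrays under older names that the gene name rule does not take. Col6a5, listed as Gm7455, had a log2 ratio of 0.64 in males and 0.30 in females (mean 0.47; limma adjusted p = 0.158). Col26a1, listed as Emid2, had 0.65 and -0.02 (mean 0.31; limma adjusted p = 0.463).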
